A study of Mus musculus with 13 samples.

Results

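The 4 arrays taken at 180, 200, 220 and 240 min after tamoxifen (the late window) were compared with the 4 taken at 100, 120, 140 and 160 min (the middle window). The windows were set by the collection times in the sample labels, and they hold 8 of the 13 arrays of the course. The comparison asks whether transcript levels kept moving in the fourth hour, after the step that the earlier arrays show between 60 and 80 min. All arrays came from mouse primary keratinocytes carrying, through a retrovirus, DNp63alpha joined to a hormone-binding domain of the estrogen receptor, so that tamoxifen switches the fused protein on. By the labels, the middle and late groups share the cells, the fusion and the tamoxifen, and only the time differs. The arrays at 20, 40 and 60 min (the first hour, 3 arrays) are given beside them for where each gene came from. Each time was measured on 1 array, so neighbouring times stand in for replicates. Whether each array had a culture of its own is not stated, and p-values therefore measure only the spread between these arrays. Cells without the fusion, and cells kept without tamoxifen for the same time, were not analysed here, and time in culture cannot be told apart from induction. The strain and age of the mice and the promoter driving the fusion are not given in the sources used here, and the host cells keep their own Trp63 gene.

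DNp63alpha is the main form of p63 in the basal layer of the epidermis, where it keeps keratinocytes able to divide and opens the regulatory regions of epidermal genes. Keratinocytes that leave the basal layer stop dividing and build the cornified envelope, a protein shell crosslinked by transglutaminases. Many envelope proteins, among them involucrin, loricrin and the small proline-rich and late cornified envelope families, are encoded side by side in the epidermal differentiation complex. Estrogen receptor fusions act within minutes of ligand, so early changes include direct targets, while later ones add the turnover of their products.

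Values are log2(intensity + 16), differences are late minus middle, and errors are SDs over 4 arrays unless given as standard errors (SE). With limma over 7436 genes, 0 genes passed an adjusted p of 0.05 (0% of those tested), and the smallest adjusted p was 0.646. At an unadjusted p under 0.05 there were 484 genes, of which 323 were higher late (4.34%) and 161 lower (2.17%). A plainer view, with no model, counts genes whose windows did not overlap: all 4 late arrays lay above all 4 middle arrays in 202 genes (2.72%) and below them in 54 (0.726%). In random order, a single split among the 70 of 8 arrays into 4 and 4 gives each outcome. The share of genes below was smaller than this rate, and the share above was larger. Successive times need not behave as a random order, and all genes share the 8 arrays. The rate is therefore given for scale and tests neither share. The differences were small. Their median size was 0.0508, against 0.107 for the middle window minus the first hour, in which 908 genes (12.2%) were higher and 1011 (13.6%) lower at an adjusted p under 0.05. The comparison with the first hour uses the same middle arrays and 3 arrays in place of 4, so the values are given side by side and not tested against each other. The 95% interval of the late minus middle difference lay within 1.5-fold in either direction for 7218 genes (97.1%) and within 2-fold for 7384 (99.3%), and reached a median of 0.128 to either side. Changes above those sizes were thus outside the interval for most genes.

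The arrays at 200 and 220 min stood apart from the rest. On the leading principal component, which held 56% of the variance of the 8 arrays, they scored 12.07 and 12.71, and the other 6 arrays scored between -6.984 and 0.9981. The 3' minus 5' log2 difference of the Gapdh control probe sets, a sign of RNA quality, was -0.139 in these arrays and -0.113 in the other 6. The other controls were also lower in these arrays: Actb (0.234 against 0.267), transferrin receptor (1.58 against 1.65) and pyruvate carboxylase (-0.766 against -0.735). Between windows the Gapdh difference did not pass an exact permutation test over arrays (two-sided p = 0.0857, smallest possible 0.0286, 0.343 adjusted over 4 controls). The 200 and 220 min arrays were not tested against the other 6. Array medians lay between 237.4 and 251.5 intensity units over the 13 arrays. Results are therefore given with and without the 200 and 220 min arrays. Without them 0 genes passed in the same limma test, 387 had an unadjusted p under 0.05, and the smallest adjusted p was 0.701. The arrays at 180 and 240 min both lay above all 4 middle arrays in 434 genes (5.84%) and both below in 664 (8.93%).

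**Figure D1:**
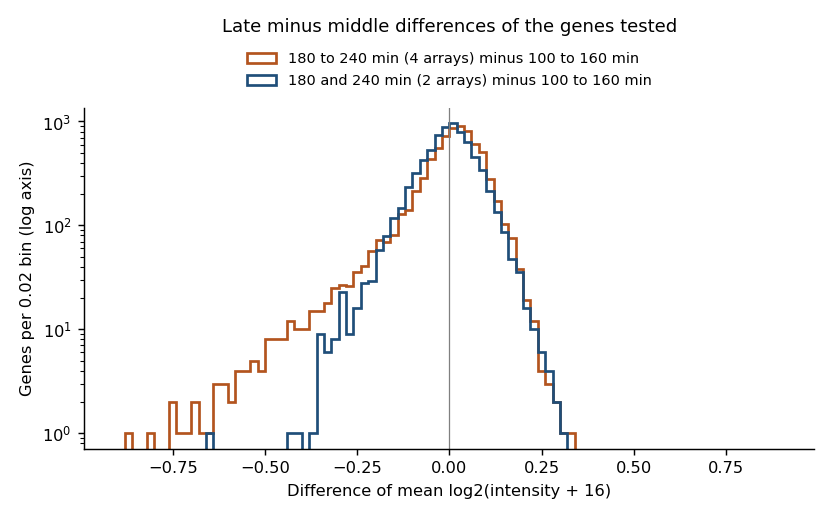
Histograms of the late minus middle difference of mean log2(intensity + 16) over 7436 genes, in bins of 0.02 with a log count axis, for all 4 late arrays (orange) and for the 180 and 240 min arrays alone (blue). With all 4 arrays 18 genes were lower by more than 1.5-fold and 0 higher, and without the 200 and 220 min arrays 1 was lower and 0 higher.

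The cultures carried the keratins of basal keratinocytes in both windows. Krt5 stood at the 99.9th percentile of mean level on the array, and its values were 13.92 ± 0.0163 in the middle window and 13.96 ± 0.0324 in the late window. Krt14, its partner in the basal filament network, differed by 0.01. Suprabasal markers were also present: Krt1 differed by -0.10 and Krt10 by -0.02, and by -0.11 and -0.07 without the 200 and 220 min arrays. Markers of other cells were partly present. Of 11 melanocyte markers 8 passed the filter on low levels, with a summed intensity of 6794 to 7292 in the middle arrays and 7160 to 7550 in the late arrays. Of these 8, 6 were higher late and 2 lower, with a median of 0.057, or 0.024 without the 200 and 220 min arrays. Dct and Oca2, of the pigment pathway, lay above the middle window in all 4 late arrays, by 0.07 and 0.10, beside 2.72% of all genes, while Mitf, the regulator of that pathway, differed by -0.11, or 0.02 without those arrays. Of 21 fibroblast markers 10 passed, with sums of 10510 to 10860 in the middle and 10350 to 11560 late, and 8 of the 10 were higher late (7 without the 200 and 220 min arrays). Of 21 immune markers 4 passed, among them S100a8 and S100a9, which keratinocytes also make. The pan-leukocyte gene Ptprc, at the 1.2th percentile, was below the filter. Of 15 endothelial and muscle markers 4 passed and of 22 hair follicle and sebaceous markers 8. The part of these cells in the results below was not tested.

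Transcripts of the cornified envelope and barrier were lower in the late window. Of the 44 tested genes of the differentiation and barrier list 40 were lower late and 4 higher, while over all tested genes 3046 were lower and 4390 higher. None of the 44 passed the adjusted threshold. From the first hour to the middle window 20 of them fell and 3 rose past it, beside 13.6% and 12.2% of all genes. In 6 of them, Ivl, Lce3a, Sprr2f, Sprr2d, Alox12b and Tgm1, every late array lay below every middle array, beside 0.726% of all genes, and in 0 every late array lay above. The median difference of the list was -0.099, and -0.148 without the 200 and 220 min arrays, beside 0.0157 and 0.000873 over all genes. Against the 4 middle arrays the list's median stood at 0.252 at 40 min, 0.105 at 100 min, -0.0778 at 160 min, -0.114 at 180 min, -0.0945 at 200 min, -0.0465 at 220 min and -0.184 at 240 min. The median was thus already lower at 160 min than at 100 min, the border at 180 min marks no step, and the 220 min array lay above both the 160 and the 180 min arrays. Without the 200 and 220 min arrays 18 of the 44 lay below all middle arrays, beside 8.93% of all genes. In bulk RNA, fewer differentiating cells and less RNA per cell cannot be told apart.

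The proximal promoters of 3 of the genes whose windows did not overlap are shown as examples, since members of this group lie together in the genome and were low together. The 3 were picked by no rule, and Lce3a, of the same stretch and also without overlap, is not shown. The sequences are RefSeq's for build GRCm38.p6, 250 bases before the start to 50 after it, 5′ to 3′ on the gene's strand. Ivl lies at chr3:92573686-92573985 on the minus strand, Sprr2f at chr3:92364937-92365236 and Sprr2d at chr3:92338890-92339189 on the plus strand. Capitals mark TGANTCA, the letters of an AP-1 element, and TATAAA, those of a TATA box.
Ivl: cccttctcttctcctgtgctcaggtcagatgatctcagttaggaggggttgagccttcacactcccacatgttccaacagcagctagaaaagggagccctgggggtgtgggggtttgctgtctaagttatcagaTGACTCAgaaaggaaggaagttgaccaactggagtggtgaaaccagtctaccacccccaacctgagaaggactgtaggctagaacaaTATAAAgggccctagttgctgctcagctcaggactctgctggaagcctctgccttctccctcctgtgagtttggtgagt
Sprr2f: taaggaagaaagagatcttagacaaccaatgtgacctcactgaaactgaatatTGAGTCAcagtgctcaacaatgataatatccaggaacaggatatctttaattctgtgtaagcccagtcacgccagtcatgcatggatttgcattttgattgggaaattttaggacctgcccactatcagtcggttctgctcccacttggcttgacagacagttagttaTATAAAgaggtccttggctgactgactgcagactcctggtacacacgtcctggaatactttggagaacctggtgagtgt
Sprr2d: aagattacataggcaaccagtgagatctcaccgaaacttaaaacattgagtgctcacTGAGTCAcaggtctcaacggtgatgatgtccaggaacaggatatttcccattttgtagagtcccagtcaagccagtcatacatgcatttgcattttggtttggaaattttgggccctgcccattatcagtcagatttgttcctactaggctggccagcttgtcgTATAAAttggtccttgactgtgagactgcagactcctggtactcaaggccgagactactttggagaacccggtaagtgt
In Ivl the AP-1 letters began at -116 and the TATA letters at -29 from the start, in Sprr2f at -197 and -29, and in Sprr2d at -193 and -29. The motifs did not overlap. Searched on both strands, TGANTCA occurred in 13 of the 33 tested list genes with a promoter in the table (39.4%), in 378 of 6066 tested genes (6.2%) and in 7.81% of all 32851 promoters. TATAAA occurred in 12 of the 33 (36.4%), in 8.9% of tested genes and in 13.62% of all promoters. Among genes with every late array below every middle array, TGANTCA was found in 6 of 45 (13.3%), and among those with every late array above in 6 of 169 (3.6%). All 3 promoters shown hold both motifs, while each motif was absent from most of the 33. These are matches of letters only.

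Involucrin (Ivl) is an early scaffold protein of the envelope. Its level was 9.69, 9.51, 9.68 and 9.51 at 100 to 160 min and 9.48, 9.34, 9.28 and 9.29 at 180 to 240 min. The step from the first hour (mean 9.80) to the middle was of similar size, -0.20, and the late minus middle difference was -0.25 (SE 0.0661, 95% interval -0.40 to -0.10, adjusted p = 0.646). The late arrays were all lower, with the 160 and 180 min arrays nearly level at the border. Lce3a, a late cornified envelope protein, read 8.69, 8.67, 8.73 and 8.72 in the middle window and 8.47, 8.35, 8.64 and 8.30 in the late window. It fell by 1.01 from the first hour to the middle (adjusted p = 9.4e-05), was level for 4 arrays, and was lower late by -0.26, or -0.32 without the 200 and 220 min arrays. Its neighbour Lce3c read 12.43, 12.36, 12.41 and 12.28, then 12.11, 12.22, 12.21 and 11.98, a difference of -0.24. Sprr2f, of the small proline-rich crosslinking proteins, read 10.39, 10.24, 10.27 and 10.18, then 10.07, 10.10, 10.15 and 9.90, a difference of -0.22. Sprr2d differed by -0.09. In Lce3a, Lce3c, Sprr2f and Sprr2d the 240 min array was the lowest of the 8. Probe sets of the Sprr2, Lce1 and Lce3 families can pick up near-identical family members, so single genes of these families are uncertain.

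Tgm1, the membrane transglutaminase that crosslinks the envelope, fell by 0.27 from the first hour (adjusted p = 0.0041) and differed by -0.13 late minus middle. Alox12b, a lipoxygenase of the lipid barrier, read 8.41, 8.40, 8.47 and 8.46, then 8.31, 8.18, 8.38 and 8.11, a difference of -0.19. Its middle mean lay 0.09 above that of the first hour, and its 220 min array lay just under the middle window. Lor, the main envelope protein loricrin, rose by 0.42 from the first hour to the middle (adjusted p = 0.0062) and differed by -0.16 late minus middle, with its 220 min array above the 140 and 160 min arrays. Flg, the filaggrin precursor, differed by -0.07. Scel (sciellin) differed by -0.25 and Prdm1, a repressor that drives terminal differentiation, by -0.23, both with overlapping windows.

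Of the 44 list genes 12 lie in the epidermal differentiation complex on chromosome 3, all 12 were lower late, and their median was -0.168, while the other 32 had a median of -0.0918 with 28 lower. Between the outermost of the 12 there were 26 tested genes in all, of which 25 were lower. The 14 outside the list, mostly further Lce1 and Sprr2 genes, had a median of -0.173, and -0.291 without the 200 and 220 min arrays, with 13 lower. Lce1a2 and Sprr2i differed by -0.30 and -0.26, and both had their lowest value, 9.17 and 9.86, at 240 min. The exception was Smcp, a sperm mitochondrial protein gene of the same stretch, at 0.07, or -0.04 without the 200 and 220 min arrays. This stretch was chosen after its values were seen, and many of its probe sets can share transcripts.

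**Figure D2:**
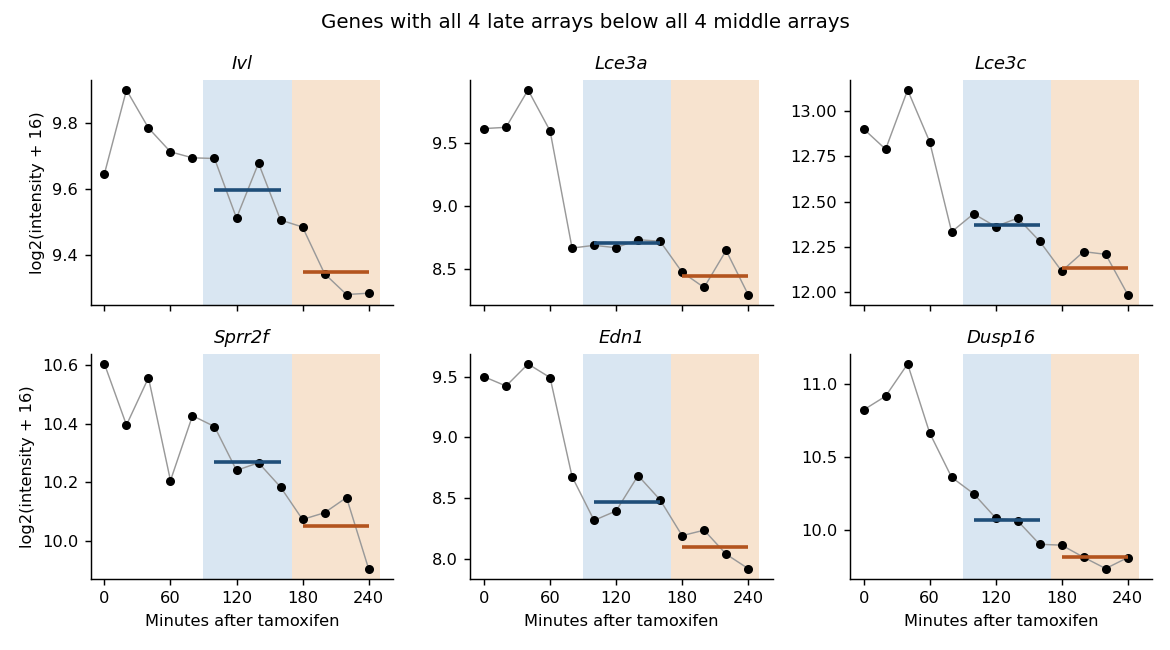
Level in log2(intensity + 16) of 6 genes in each of the 13 arrays against minutes after tamoxifen, on a separate vertical scale per gene; blue and orange shading and bars mark the middle and late windows and their means. In each gene the 4 late arrays lie below the 4 middle arrays, as in Edn1, from 8.47 to 8.09, after a larger step between 60 and 80 min in Lce3a, Lce3c and Edn1.

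Edn1, the vasoconstrictor and melanocyte growth factor endothelin 1, had the largest difference among the 54 genes that were lower late without overlap. It read 8.31, 8.39, 8.69 and 8.48, then 8.19, 8.23, 8.04 and 7.92, a difference of -0.38 (SE 0.0913, 95% interval -0.58 to -0.17, adjusted p = 0.646), and -0.42 without the 200 and 220 min arrays. From the first hour to the middle it fell by 1.04 (adjusted p = 0.00015). Dusp16, a phosphatase of the JNK and p38 kinases, read 10.25, 10.08, 10.06 and 9.90, then 9.90, 9.81, 9.74 and 9.81, a decline spread over both windows. Lpin2, a phosphatidate phosphatase of lipid synthesis, went from 9.70 at 100 min to 9.15 at 240 min, with each array below the one before. Gadd45a, a stress and DNA damage responder, fell by 0.70 to the middle window (adjusted p = 0.00031) and differed by -0.26 late. Klf6, an immediate early zinc finger factor, fell by 0.88 (adjusted p = 6.6e-05) and differed by -0.16. Plet1, a surface protein of epithelial progenitors, and Trib1, a pseudokinase that steers protein degradation, differed by -0.18 and -0.09. Hk2, a hexokinase, differed by -0.18, and Krt16, a keratin of activated epidermis, by -0.07.

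Max encodes the dimerisation partner of Myc, and its means were 8.82 in the first hour, 9.05 in the middle and 8.76 late. Its values were 9.15, 8.89, 9.05 and 9.12, then 8.75, 8.87, 8.72 and 8.69, a difference of -0.29, or -0.33 without the 200 and 220 min arrays. Myc itself differed by -0.04. For 3 of the 10 largest such differences the size rested on the 200 and 220 min arrays: Prpf38b, a splicing factor, differed by -0.32 with them and -0.15 without, Wdr43, a nucleolar protein, by -0.25 and -0.11, and Rbbp6, a ubiquitin ligase, by -0.25 and -0.04. Nabp1, a single-strand DNA binding protein, differed by -0.26 and -0.18.

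The 202 genes higher late without overlap had a median difference of 0.13 and none above 0.281. They outnumbered the 54 lower ones. With the 200 and 220 min arrays left out, 434 lay higher and 664 lower. These counts ask only the 180 and 240 min arrays to clear the middle window, a looser criterion, and are not comparable with 202 and 54. Ddit4l, a brake on the mTOR kinase, led the 202 genes. It read 8.48, 8.47, 8.28 and 8.38, then 8.61, 8.55, 8.82 and 8.76, a difference of 0.28 (SE 0.0708, 95% interval 0.12 to 0.44, adjusted p = 0.646), and it rose by 0.86 from the first hour (adjusted p = 9.2e-05). The value was 0.28 without the 200 and 220 min arrays as well. Parp12, an ADP-ribosyltransferase, read 7.99, 8.12, 7.998 and 8.05, then 8.21, 8.27, 8.29 and 8.31, a difference of 0.23. Its windows were tight and well separated, and no gene had a smaller unadjusted p in the limma fit. Ssbp3, a cofactor of LIM-domain transcription factors, read 9.70, 9.77, 9.66 and 9.84, then 9.911, 9.906, 9.999 and 9.992, a difference of 0.21, after a rise of 0.37 (adjusted p = 0.0088).

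Others of the 10 largest showed the same sizes. Wdr6 differed by 0.27, Abhd4, a lipase of N-acyl phospholipids, by 0.25, and Rad1, of the DNA damage checkpoint clamp, by 0.23. Nnt, the mitochondrial transhydrogenase that makes NADPH, differed by 0.22 and Tspyl1 by 0.21. The methyltransferase gene Prmt2 differed by 0.25 with and 0.13 without the 200 and 220 min arrays, and the actin-binding Twf2 by 0.21 and 0.15. Wdr6 and Nnt moved up and down together from 80 to 140 min by as much as they differed between windows. Wdr6, Abhd4, Prmt2, Nnt and Twf2, like Vim and Krt14, were read by probe sets of the _x_at kind. Such probe sets can also pick up other transcripts, so the values of these single genes are uncertain. Galnt2, which starts O-linked sugar chains, differed by 0.21. Dusp6, a phosphatase of ERK, differed by 0.19 and varied little late, at 10.27, 10.27, 10.25 and 10.26, against 10.18, 9.96, 9.98 and 10.16.

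**Figure D3:**
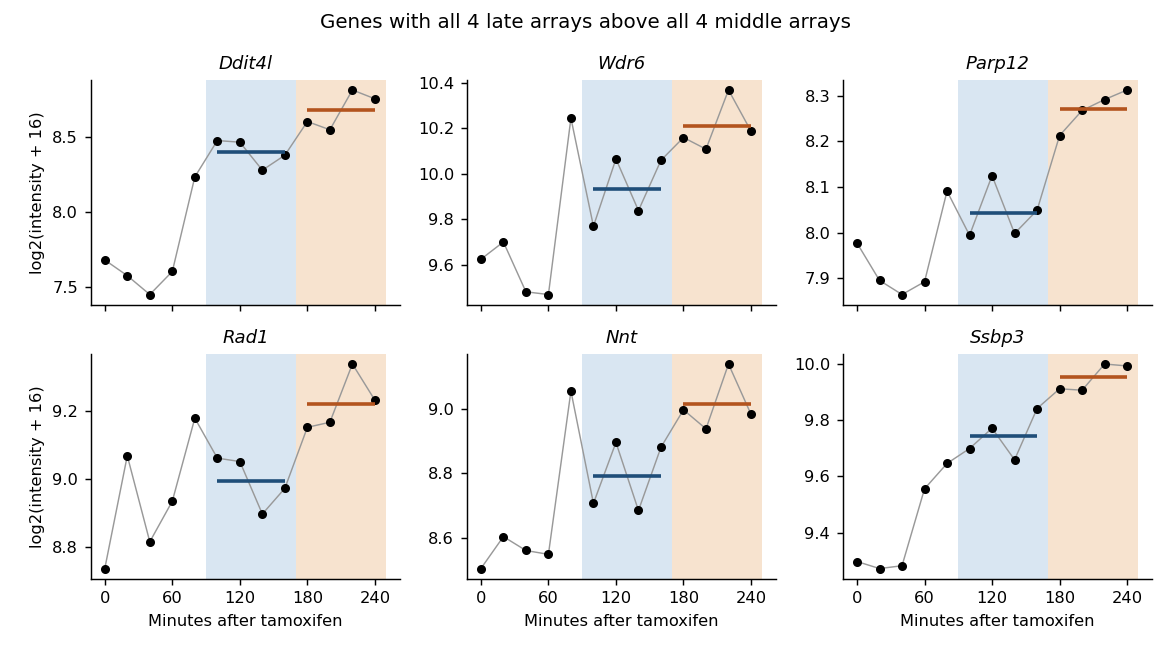
Level in log2(intensity + 16) of 6 genes in each of the 13 arrays against minutes after tamoxifen, with shading and bars as for the lower genes and a separate vertical scale per gene. The late means lie 0.21 (Ssbp3) to 0.28 (Ddit4l) above the middle means, and Wdr6 and Nnt had a high array at 80 min.

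The p63 gene and its targets gave no common direction. The best Trp63 probe set read 10.34, 10.46, 10.43 and 10.42 in the middle and 10.40, 10.35, 10.25 and 10.36 late, a difference of -0.08 (95% interval -0.18 to 0.03), or -0.04 without the 200 and 220 min arrays. Another Trp63 probe set read 1974.3, 693.8, 695.6 and 919.1 intensity units in the middle, then 749.9, 721.4, 663.1 and 1173.2 late. A further one read 368, 211.7, 232 and 280.2, then 253.8, 212.2, 232 and 288.6. Both were highest at 100 min, and already far lower at 120 min. Which of them detects the fusion transcript was not tested. Of 33 tested p63 targets of epidermis 22 were higher late and 11 lower, with a median of 0.020. The kinase gene Ripk4, needed for the epidermal barrier, was without overlap higher, by 0.13, and Hk2 lower. Of 25 basal keratinocyte genes 14 were higher and 11 lower, with a median of 0.010 (19 and 6, with a median of 0.026, without the 200 and 220 min arrays), and the differences of Wnt10a (0.10) and Igfbp3 (-0.08) were the largest. Among 20 desmosome and tight junction genes 10 were higher and 10 lower. Dsc1, a desmocollin of upper layers, differed by -0.25, or -0.12 without the 200 and 220 min arrays, and Marveld2, a tricellular junction protein, by 0.17. Marveld2 had fallen by 0.30 from the first hour to the middle (adjusted p = 0.013).

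The immediate early genes, transient responders to growth signals, had near-equal list medians in the arrays from 100 min on. Against the middle arrays the median of the 44 tested members was 0.373 at 40 min, 0.233 at 60 min, 0.106 at 80 min and then between -0.0738 and 0.0335 from 100 min on. From the first hour to the middle window 29 of the 44 fell and 1 rose at an adjusted p under 0.05, beside 13.6% and 12.2% of all genes. Late minus middle, 27 were lower and 17 higher, with a median of -0.014. Without the 200 and 220 min arrays 33 were lower and 11 higher, with a median of -0.054, and 14 of the 44 lay below all middle arrays, beside 8.93% of all genes. Egr2 fell by 1.51 from the first hour to the middle (adjusted p = 0.00019) and differed by -0.15 late, or -0.23 without the 200 and 220 min arrays. Its means were 9.40, 7.89 and 7.74 in the first hour, middle and late arrays, and the filter lay at 7.83. It passed that filter with the help of its higher early arrays, and its late values were near or under it. Dusp1, a nuclear MAP kinase phosphatase, fell by 1.28 (adjusted p = 5.4e-05) and differed by -0.14, or -0.25 without them. Dusp10 fell by 1.46 (adjusted p = 6.6e-05) and differed by -0.22. The AP-1 subunit Jun differed by -0.09, and Fos by 0.09, which turned to -0.03 without them. Ptgs2, the inducible prostaglandin synthase, read 10.07, 10.23, 10.36 and 10.36, then 10.14, 9.68, 9.51 and 9.94, a difference of -0.43 that was -0.21 without the 200 and 220 min arrays. Ppp1r15a, a phosphatase subunit of the stress response, went the other way, from -0.21 to -0.36. Cxcl5, a neutrophil chemokine, rose by 1.501 (adjusted p = 6.6e-05) and then differed by -0.08 late, or -0.01 without the 200 and 220 min arrays.

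Cell cycle genes differed between arrays inside the middle window. Against the mean of that window, the median of 47 tested G1/S and replication genes was -0.157 at 100 min, -0.0328 at 120 min, 0.0497 at 140 min and 0.152 at 160 min, and then between 0.00176 and 0.063 in the late arrays. The 49 tested G2/M and mitosis genes went from -0.185 at 100 min to 0.133 at 160 min and lay between -0.0674 and 0.0489 late. This course crosses the window, so the difference of window means understates it: the medians were 0.036 for G1/S, with 33 higher and 14 lower, and -0.007 for G2/M, with 21 higher and 28 lower. Without the 200 and 220 min arrays 39 of the 47 and 39 of the 49 were higher. Msh6, of mismatch repair, was the G1/S member without overlap, at 9.62, 9.90, 9.78 and 9.94, then 9.95, 9.96, 9.99 and 10.07. Ccne2, a cyclin of S phase entry, read 9.02 at 180 min and 8.95 at 240 min but 7.73 and 7.97 between them, and Pola1, a DNA polymerase subunit, read 8.21 and 8.22 with 7.59 and 7.43 between.

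**Figure D4:**
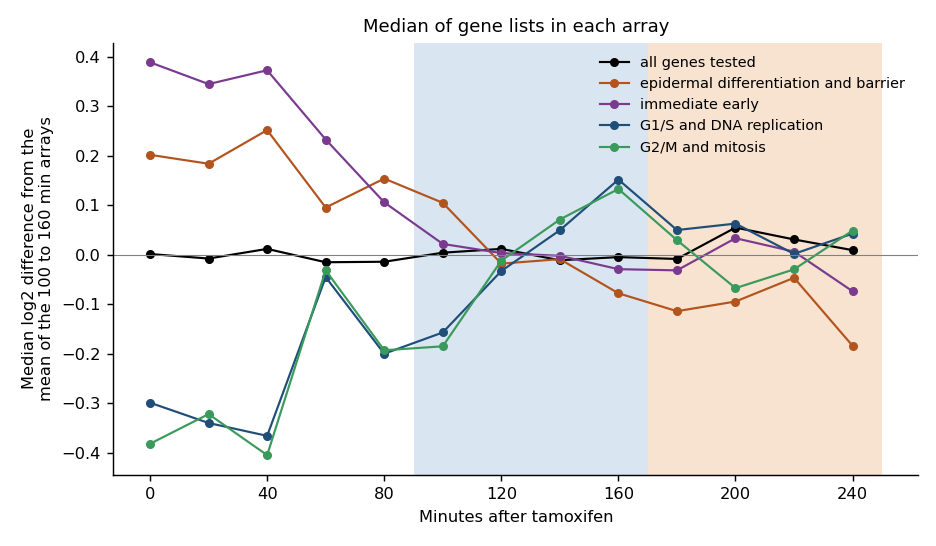
Median over the members of 4 gene lists and over all 7436 genes of the log2 difference from the mean of the 100 to 160 min arrays, in each of the 13 arrays against minutes after tamoxifen. The differentiation and barrier list is lowest, at -0.184, at 240 min, the immediate early list is nearly flat from 100 min, and the cell cycle lists are highest at 0.152 (G1/S) and 0.133 (G2/M) in the 160 min array.

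The largest negative differences rested on the 200 and 220 min arrays. These genes were chosen after their values were seen. Rock1, a kinase that contracts the actin network, read 10.13, 10.35, 10.10 and 9.59 in the middle, 9.99 at 180 min, 8.71 at 200 min, 7.85 at 220 min and 10.17 at 240 min. Its difference was -0.86 (95% interval -1.85 to 0.12), and 0.04 without those arrays. Smc4 and Smc2, the condensin subunits that compact chromosomes, differed by -0.72 and -0.67, and by 0.06 and 0.12 without. Esf1, of ribosome assembly, differed by -0.82, Cenpf and Mki67, of mitotic chromosomes, by -0.50 and -0.45, the splicing kinase gene Clk1 by -0.41, the snoRNP gene Nop58 by -0.42, the Polycomb gene Suz12 by -0.37 and Clock by -0.45. Without the 200 and 220 min arrays these differences were between -0.10 (Nop58) and 0.06 (Suz12, Mki67). The 160 min array was also the lowest middle array in Rock1, Esf1, Smc4, Clk1 and Clock. Over all genes the lowest of the 8 arrays was at 200 or 220 min in 1534 (20.6%). Against the middle arrays, the median over all genes was 0.055 at 200 min and 0.031 at 220 min, so most genes were not low there.

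In others a smaller negative difference was left without these arrays. The nuclear RNA Malat1 read 9.19, 9.17, 8.58 and 8.11, then 8.55, 7.60, 7.36 and 8.56, a difference of -0.74, and -0.20 without. Rora, an orphan nuclear receptor, differed by -0.57 and -0.29. Rptn (repetin), of the differentiation complex, read 10.18, 9.88, 10.11 and 9.66, then 9.94, 8.98, 9.10 and 9.63, a difference of -0.54, and -0.17 without. Inhba, the activin A subunit, differed by -0.49 and -0.20, Hrnr (hornerin) by -0.33 and -0.10 and Idi1, of cholesterol synthesis, by -0.38 and -0.11.

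**Figure D5:**
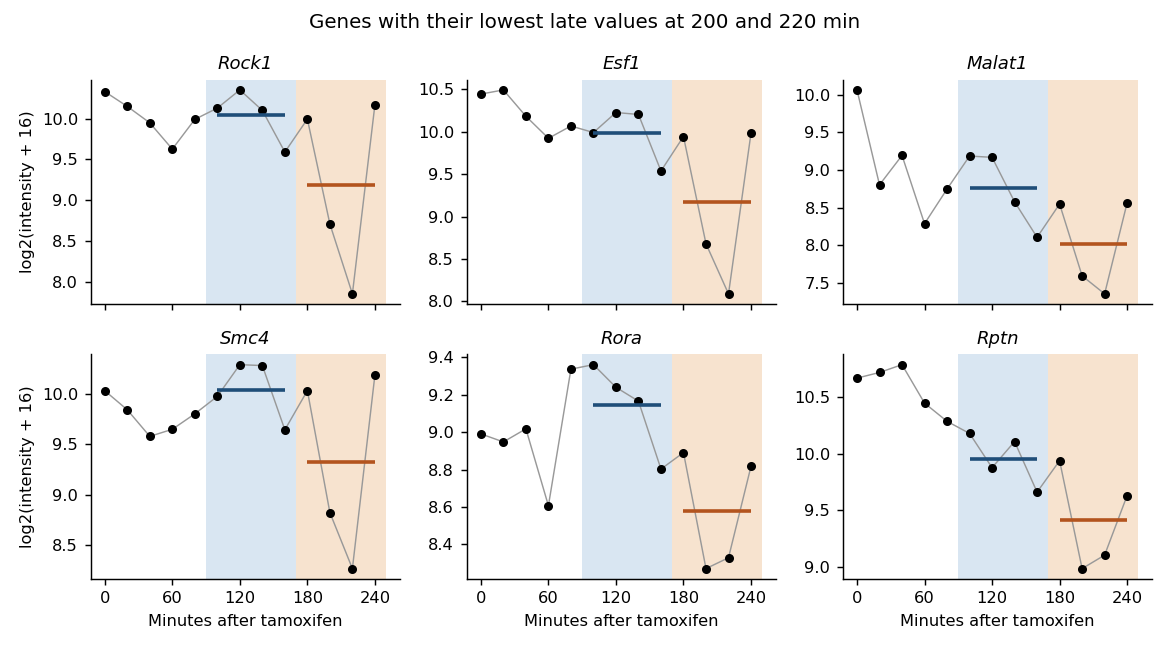
Level in log2(intensity + 16) of 6 genes in each of the 13 arrays against minutes after tamoxifen, with shading and bars as above and a separate vertical scale per gene. Within the late window the 200 and 220 min arrays are the lowest in each, as in Rock1, at 8.71 and 7.85 between 9.99 and 10.17.

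A straight line through the 8 arrays, which needs no border between windows, passed no gene at an adjusted p under 0.05 in limma (0% of 7436). Unadjusted, 837 genes had p under 0.05, 513 upward and 324 downward, and the smallest adjusted p was 0.218, for Lpin2 at -0.21 per hour. Nucb2, a calcium-binding Golgi protein, followed at -0.215 per hour and Dusp16 at -0.198, with Cby1, a Wnt pathway antagonist, at 0.165 (adjusted p = 0.266 for each). Leaving out the 240 min array gave 121 called genes, 120 of them downward. In 112 the 200 and 220 min arrays were both below each other of the 8 arrays. The genes named here among the 121 were Cenpf, Dusp16, Esf1, Inhba, Lpin2, Malat1, Nucb2, Rock1, Rora, Rptn and Scel. Of these, Dusp16, Lpin2 and Nucb2 were not among the 112, as their 240 min array lay below that of 200 min. With the 80 min array added, 5 genes passed: Lpin2 (-0.226 per hour, adjusted p = 0.0102), Dusp16 (-0.222, 0.0203), Nucb2 (-0.214, 0.0203), Rnf11 (-0.135, 0.0419) and Cby1 (0.153, 0.0419). Rnf11 is a ubiquitin ligase adaptor. Nucb2 read 9.76, 9.54, 9.52 and 9.36, then 9.38, 9.27, 9.22 and 9.23, and Cby1 read 8.24, 8.37, 8.35 and 8.49, then 8.46, 8.58, 8.58 and 8.65, so in both the windows overlapped by the 160 and 180 min arrays alone.

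Metabolic and secretory genes differed by little. Of 23 tested cholesterol synthesis genes 17 were lower and 6 higher, with a median of -0.057, and -0.068 without the 200 and 220 min arrays. Hmgcs1, an early enzyme of the pathway, read 11.78, 11.71, 11.79 and 11.77, then 11.73, 11.61, 11.51 and 11.65, a difference of -0.13 that was -0.07 without those arrays. Srebf1, a regulator of lipid synthesis genes, lay above its middle values in all 4 late arrays, by 0.13. Of 64 oxidative phosphorylation genes 43 were higher, and 55 of 71 mitochondrial ribosomal genes, both with a median of 0.028. Without the 200 and 220 min arrays the medians were 0.011 and 0.0044, with 39 of the 64 and 39 of the 71 higher. Uqcrc1, a core subunit of complex III, differed by 0.12 without overlap. Of 36 Golgi and vesicle genes 25 were higher, with a median of 0.036 that was 0.005 without the 200 and 220 min arrays, and the coat gene Sec24d and the retrieval receptor gene Kdelr3 were without overlap at 0.18 and 0.15 (0.17 and 0.10 without those arrays). Over all genes 4390 of 7436 were higher late, and 3756 without those arrays. Of 31 genes of the amino acid response 16 were higher and 15 lower, with Chac1 at -0.26 and Ddit3 at -0.22. Without the 200 and 220 min arrays 11 were higher and 20 lower, and the list median turned from 0.0035 to -0.035. Hmox1, the oxidative stress enzyme, differed by -0.21, or -0.35 without them. The metallothionein gene Mt1 differed by -0.34, at 9.27, 9.26, 9.93 and 10.62, then 9.40, 9.55, 9.34 and 9.435. Its difference rested on the 140 and 160 min arrays, and every late array lay above those at 100 and 120 min.

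Of 37 tested cytoskeletal targets of SRF and YAP 31 were higher late and 6 lower, beside 4390 and 3046 over all genes, with a median of 0.043, and 0.027 without the 200 and 220 min arrays. Flna, the actin crosslinker filamin A, read 10.95, 11.11, 11.02 and 11.03, then 11.08, 11.26, 11.17 and 11.21, a difference of 0.15. Its first-hour mean was 11.26, with a fall of 0.23 to the middle (adjusted p = 0.0086), so the late mean of 11.18 was still below it. Vim, the filament protein of mesenchymal cells, differed by 0.20, and the fibroblast collagen gene Col6a3 by 0.17. Col6a3 had fallen by 0.24 from the first hour to the middle (adjusted p = 0.021). Actb differed by 0.04 and Gapdh by 0.03. Of 26 tested p53 targets 18 were higher, with a median of 0.046, or 0.079 without the 200 and 220 min arrays. Sesn1, a stress-induced brake on mTOR, was without overlap at 0.10, Cdkn1a differed by 0.10, and Mdm2 by 0.07, or 0.17 without the 200 and 220 min arrays, and Gadd45a went the other way. Of 17 Notch pathway genes 12 were higher, with Notch1 at 0.10, the ligand gene Dll1 at 0.15 and the target Hes1 at -0.07, or -0.13 without the 200 and 220 min arrays. Sostdc1, a secreted inhibitor of BMP and Wnt, differed by 0.32 with overlapping windows, after a rise of 0.80 from the first hour (adjusted p = 0.0018).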

How the data were processed

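Total RNA extracted with Trizol was made into biotinylated cRNA and hybridised to Affymetrix arrays, per the labels' protocols. The deposited intensity values are linear, with 22690 probe sets on each array, and the array medians were already close when deposited. The software used by the authors is not given in the sources. Where arrays are scaled alike, a change common to most transcripts cannot be seen.

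Intensities were used as log2(intensity + 16), which understates changes of dim genes. The platform table gave 1 gene to 20393 probe sets, several to 691 and none to 1606, and the last 2 kinds were left out. Symbols of 20364 probe sets were updated by Entrez identifier (RefSeq, GRCm38.p6, names only). Each of 12394 genes kept its probe set with the highest mean, and the dimmest were dropped (mean under the 40th percentile, 7.83), leaving 7436. R 4.3.3 and limma 3.58.1 were used (eBayes with intensity trend, two-sided, Benjamini-Hochberg over 7436 genes), after tests on simulated data. The main fit used the 8 arrays only, since the other arrays span the 60 to 80 min step. All adjusted p-values of genes are limma's. Precision is limited by the number of arrays.

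The 43 gene lists, the design and the rule for named genes were chosen with earlier results of these data known. The rule names up to 15 genes a direction past the threshold, the 10 largest differences a direction among genes whose windows did not overlap, up to 2 genes a list where none passed, up to 5 slopes a direction past the threshold, and a fixed set of epidermal, early response and reference genes. Others were picked with their values in view, among them Alox12b, Tgm1, Krt16, Klf6, Trib1, Plet1, Dusp6, Msh6, Galnt2, Srebf1, Sesn1 and most genes low at 200 and 220 min. Some genes that the rule picked from the lists, among them Rasa1, Il1a, Tnfrsf18 and Xiap, are not described above. The alternatives covered filter, pseudocount, scaling, probe set choice, moderation, array weights and arrays left out.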

Additional observations from a re-analysis of the deposited data

Results flagged for a closer look

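Among 108 genes named, 216 groups of 4 arrays were examined with Dixon's gap test, together with control probe sets of each array, and 12 values stood apart from the other 3 of their window. Chance gives about 1 in 20 groups. No cause was tested. Rbbp6 read 9.05 at 120 min, with the other middle arrays at 8.97 to 8.98. Wdr43 read 10.34 at 140 min, against 10.24 to 10.25. Tspyl1 read 9.72 at 140 min, against 9.77 to 9.78. Ripk4 read 10.8 at 140 min, against 10.93 to 10.95. Dusp10 read 8.99 at 140 min, against 8.79 to 8.81. Smcp read 8.13 at 140 min, against 8.23 to 8.25. Mitf read 8.64 at 120 min, against 8.7 to 8.71. Clock read 8.42 at 160 min, against 8.7 to 8.75. In the late window, Hk2 read 9.91 at 240 min, against 10.03 to 10.04. Krt10 read 10.61 at 220 min, against 10.36 to 10.4. Actb read 13.97 at 200 min, against 13.91 to 13.92. The 18S rRNA 3' control probe set read 9.15 at 100 min, with the other middle arrays at 8.88 to 8.9.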

How the results depend on the processing

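The late minus middle count stayed at 0 under all 25 alternatives with limma, the smallest adjusted p over all genes lying between 0.23 (array weights) and 0.994 (without the 220 min array). Unadjusted, between 198 and 1015 genes had p under 0.05. Treating the shift shared by the 200 and 220 min arrays as a covariate, chosen after seeing the data, also gave 0 genes. The slope count was 5 over 80 to 240 min (1 higher, 4 lower) and between 0 and 121 with 1 array left out (0 to 1 higher, 0 to 120 lower), the 121 coming without the 240 min array. Windows did not overlap in 434 genes higher and 664 lower without the 200 and 220 min arrays, where 2 late arrays are compared with 4, and in 91 lower with no filter on dim genes, which tests 12394 genes. Of the 108 genes named, 92 kept their sign in every alternative run. Leaving out the 200 and 220 min arrays changed 12 signs and moved 28 differences by more than the spread between arrays. No paired analysis was possible because the labels give no replicate numbers. With 4 arrays a side the 95% interval reached a median of 0.128 to either side.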
